A study of Mus musculus with 14 samples.

Results

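The comparison described here sets mouse embryonic stem (ES) cell cultures 24 h after induction of ER71/Etv2, GATA2 and Scl against untreated cultures of day 2.5, which is 12 h younger. The label of each sample placed it in its group, and 3 arrays of each group entered the comparison, 6 of the 14 arrays of the series. The ES cells were grown on PMEF feeder cells and then differentiated as embryoid bodies, and total RNA of whole cultures was amplified and hybridised to Affymetrix arrays, 1 array per sample. The induced cells received doxycycline at 1 µg/ml from day 2 to day 3, carry the genotype label "ER71/Etv2, GATA2 and Scl co-expression", and were collected on day 3. The control cells received no doxycycline and carry the genotype label "wild-type", although the source label of replicates 1 and 2 names the same inducible line, iEGS. Replicate 3 of both groups came from a line named iB1, so the lines differ between replicates and not between groups. The labels do not say what distinguishes iB1 or whether a line is a single clone, and the design text counts 3 factors while naming a pair. Doxycycline given to cells without the factors was not analysed here, so the drug and the factors cannot be told apart.

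Induced cells of 24 h and control cells of day 2.5 differ in both treatment and time. Control cells of day 3, with 3 arrays from the same lines, are therefore set beside them throughout. A gene lower than both control days lies below the earlier state, whereas a gene lower than day 3 alone may only lack a rise that the controls made. The question is which genes differed from the day 2.5 controls and which lay near them while the controls changed. Doxycycline began on day 2, so by day 2.5 the induced cells had already been treated for 12 h. No day 2 array was compared. A level below day 2.5 may thus be a fall or a rise missed after day 2, which cannot be told apart. Rises and falls of induced cells given below are differences from the day 2.5 controls. ER71/Etv2 is an ETS transcription factor that specifies blood and endothelial progenitors from mesoderm. GATA2 is a zinc finger factor of blood stem and progenitor cells, and Scl (gene symbol Tal1) is a basic helix-loop-helix factor needed for all blood lineages. In embryoid bodies, as in the gastrulating embryo, epiblast-like cells pass through a primitive streak state driven by Nodal, Wnt and FGF signals, and the mesoderm that forms gives rise to heart, somite, blood and vessel lineages.

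All values are log2 expression from RMA, a summary of probe signals, for 19938 genes, and differences between groups are log2 differences with standard errors (SE) from limma. A gene was called changed at a Benjamini-Hochberg adjusted p under 0.05. The number of arrays limits the precision. In bulk cultures fewer cells of a type and less RNA per cell cannot be told apart. Induced 24 h replicate 3 stood apart: its mean correlation with the other 11 arrays of the fit was 0.968, against at least 0.976 for each of those, and its values spread least over genes (SD 1.91). Induced 24 h replicates 1 and 3 differed by a root mean square of 0.615, against 0.262 to 0.418 for the other pairs within the 3 groups compared.

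Of the 19938 genes, 458 were called higher in induced 24 h cells than in day 2.5 controls (2.3%) and 804 were called lower (4.03%), together 6.33%. The change reached 2-fold for 229 of the higher and 267 of the lower genes. All 3 induced arrays lay above the 3 control arrays for 458 of the 458 higher genes, an order that 7.44% of all genes showed. All 3 lay below for 803 of the 804 lower genes, an order that 12.3% of all genes showed. The exception was the chemokine gene Ccl20, named after its values were seen, whose induced replicate 2 (5.12) lay above control replicate 2 (5.01). The difference had the same sign in iB1 and iEGS for every called gene. For all called genes but Ccl20 the order of the arrays already fixes that sign, so it does not compare the lines. A test of whether the 2 lines differed rests on 1 iB1 array per group, which was assumed to vary like the others. It does not show that the lines act alike. The counts moved with single arrays. Without induced 24 h replicate 1 they were 932 higher and 1672 lower, without induced 24 h replicate 3 they were 506 and 587, and without control day 2.5 replicate 1 or replicate 3 the lower count was 514 or 532. With the arrays quantile-normalized again, higher genes made up 46.8% of calls (679 higher and 771 lower), against 36.3% here.

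Set beside day 3, 310 of the 458 higher genes were higher than both control days (67.7%, or 1.55% of all genes) and 409 of the 804 lower genes were lower than both (50.9%, or 2.05% of all genes). The same 409 genes were 59.9% of the 683 genes called lower than day 3 (3.43% of all genes), and the 310 were 76.5% of the 405 genes called higher than day 3 (2.03% of all genes). A further 395 genes were lower than day 2.5 and not called against day 3, and 146 were higher than day 2.5 and not called against day 3. Conversely, 272 genes were lower than day 3 and not called against day 2.5. For 54 of those 272 the controls had a called rise between day 2.5 and day 3, and for the other 218 they had none. The comparisons share arrays, so these counts describe the groups and are not independent results. Without induced 24 h replicate 1, 483 genes were higher and 823 lower than both control days, and without induced 24 h replicate 3, 358 and 297. A fit with replicate numbers as a block gave 627 genes lower than both control days, 1363 lower than day 2.5 and 824 higher than day 2.5.

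**Figure D1:**
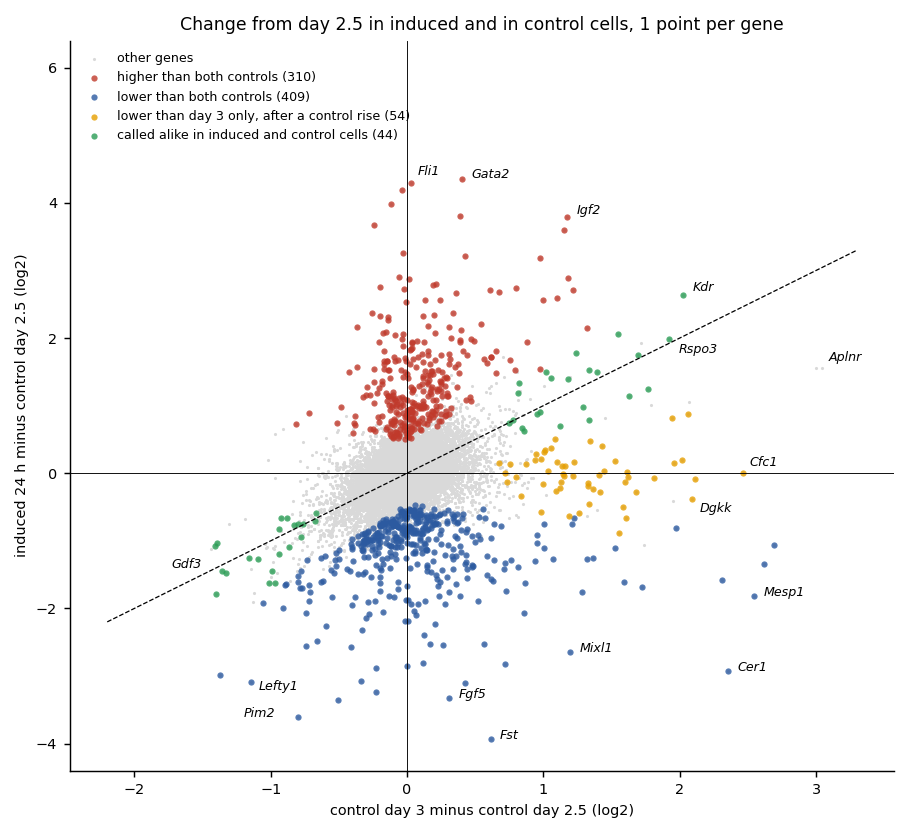
Each point is a gene, with the log2 change of the controls from day 2.5 to day 3 on the horizontal axis and the log2 change of induced 24 h cells from day 2.5 on the vertical axis. The dashed line marks equal change. Genes higher than both controls (310) and lower than both (409) lie above and below the cloud, the 54 genes that are lower than day 3 alone after a control rise lie along the horizontal axis, and 44 genes called alike in induced and control cells lie near the line. Gene names mark examples described in the text.

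The 3 induced factors were higher on every induced array. Etv2 was at 7.38, 6.77 and 6.92 in day 2.5 controls and at 9.73, 9.83 and 9.73 in induced cells, a difference of 2.74 (SE 0.19, adjusted p 8.3e-07). Gata2 was at 5.85, 5.49 and 5.59 against 10.01, 10.03 and 9.94, a difference of 4.35 (SE 0.18), the largest of any called gene here. Tal1 was at 5.14, 4.85 and 4.61 against 7.38, 7.72 and 7.49, a difference of 2.66 (SE 0.24). No array of one group overlapped the other. The controls had no called change in these genes by day 3 (0.80, 0.40 and 0.36). Whether the probe sets read the introduced copies, the endogenous genes or both cannot be told apart.

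Endothelial transcription factors rose as a group. Of 19 measured, 14 were called higher than day 2.5 and 0 lower, and 12 of the 14 were also higher than day 3. The induced Tal1 is among the 14 and the 12. The median difference of the list was 1.72 against -0.0066 over all genes. Fli1, an ETS factor of vessel and blood cells, was at 5.22, 5.62 and 5.61 in day 2.5 controls, 5.39, 5.52 and 5.61 in day 3 controls and 9.99, 9.86 and 9.49 in induced cells, a rise of 4.30 (SE 0.17, adjusted p 4.1e-09). Sox7, a SoxF factor of early endothelium, was at 5.29, 4.85 and 4.97 on day 2.5 and at 8.36, 9.09 and 8.70 after induction, a rise of 3.68 (SE 0.21). The controls changed neither gene by more than 0.24. Sox18 (2.27), Erg (1.98), Ets2 (1.83), Elk3 (1.74) and Ets1 (1.65), the first of the SoxF and the rest of the ETS family, were also above both control days. Hhex, a homeobox factor of blood and endothelial progenitors, rose by 2.70 from day 2.5, above a control rise of 1.22 that was not called without control day 2.5 replicate 2 or 3 or control day 3 replicate 1 or 3 (adjusted p 0.064 to 0.087). Prox1, the factor of lymphatic endothelium, was not called against day 2.5 (-0.62) and was below day 3 (-1.10). Without induced 24 h replicate 1 it was called lower than day 2.5 (-0.82).

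Receptors and adhesion molecules of endothelium followed. Of 38 measured, 23 were called higher than day 2.5 and 0 lower, and 19 were higher than both control days, with a median of 1.12. Tek, the angiopoietin receptor, was at 4.95, 4.28 and 4.31 in day 2.5 controls and at 9.32, 8.20 and 8.0 in induced cells, a rise of 3.99 (SE 0.30, adjusted p 1.3e-06). Cdh5, the cadherin of endothelial junctions, was at 5.46, 5.11 and 4.96 against 9.50, 9.02 and 8.43, a rise of 3.80 (SE 0.23). In both genes induced replicate 1 was highest and replicate 3 lowest, and all 3 lay above every control array. The junction protein Esam (2.73), the calcitonin receptor-like partner Ramp2 (2.57), the secreted Egfl7 (2.38), the VEGF receptor Flt1 (1.82), the TGF-beta co-receptor Eng (1.15) and Tie1 (1.09) rose as well. Other members were not called against day 2.5. Pecam1 differed by 0.43 (95% interval -0.31 to 1.17), Cd34 by 0.37 (-0.04 to 0.78), and Cldn5 and Vwf by -0.01 and 0.40. Cd34 and Vwf were called above day 3 (0.86 and 0.54). That call of Cd34 was lost without induced 24 h replicate 2 or control day 3 replicate 1 or 3, and that of Vwf without induced 24 h replicate 3 or any 1 day 3 array (adjusted p 0.051 to 0.12). Flt4, a VEGF receptor, was not called against day 2.5 (0.86), but was called without induced 24 h replicate 3 (1.10).

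Blood progenitor genes rose in part. Of 26 measured, 12 were called higher than day 2.5 and 0 lower, and 11 were higher than both control days, with a median of 0.55. Lmo2, the bridging partner of Tal1 and GATA factors, was at 6.56, 5.62 and 5.84 in day 2.5 controls and 8.89, 7.96 and 8.30 in induced cells, a rise of 2.38 (SE 0.26). Runx1, the factor of definitive blood, was at 5.37, 5.05 and 5.21 against 7.76, 7.31 and 6.91, a rise of 2.12 (SE 0.19). Neither group overlapped the other in these genes. The induced Gata2 and Tal1 are 2 of the 12. Gfi1b, a repressor of erythroid and megakaryocyte cells, rose by 1.80, and the ETS factor Spi1 by 1.14. The platelet chemokine Pf4 had low signals, at 2.49, 2.79 and 2.77 in day 2.5 controls and 3.87, 3.99 and 3.94 in induced cells, a rise of 1.25. Itga2b, the integrin of megakaryocytes and early blood cells, was not called (0.53, interval -0.01 to 1.06). Of 13 primitive erythroid genes 3 were called higher: Nfe2 (1.40), Gata1 (1.02) and the erythropoietin receptor Epor (0.61). Epor was not called once induced 24 h replicate 2 or 3 or control day 2.5 replicate 1 or 2 was left out (adjusted p 0.077 to 0.091). The embryonic globin Hbb-bh1 was near the array's floor in both groups, at 2.73 to 2.90 in controls and 2.65 to 3.06 in induced cells.

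Other genes were among the 12 largest rises. Npl, which cleaves sialic acid, was at 6.08, 5.76 and 6.25 in day 2.5 controls and 10.48, 10.18 and 9.99 in induced cells, a rise of 4.19 (SE 0.16). Slc7a8, an amino acid transporter, rose by 3.26, the RNA export family member Nxf7 by 3.22, the calpain family gene Capn6 by 3.18 and the potassium channel subunit gene Kcne3 by 2.90. Igf2, the fetal growth factor, was at 7.28, 6.88 and 7.29 on day 2.5, at 8.18, 8.22 and 8.56 in day 3 controls and at 10.51, 11.26 and 11.04 after induction, so that it rose by 3.79 (SE 0.20) from day 2.5 and stood 2.61 above day 3. The control rise of Igf2 (1.17) was not called without control day 2.5 replicate 2 or control day 3 replicate 3 (adjusted p 0.078 and 0.084).

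Igf2 and Kcne3 had the largest rises among the 5 named genes with a match to a searched motif in the 250 bases before their start, out of 36 of 50 named rises with a window in RefSeq's GRCm38.p6 annotation. The share of all genes with a match to any searched motif was not computed, so the 5 of 36 is a description only. The search of named rises left a chromosome out, although the count of 36 did not. The motifs were ACAGGAA and CCGGAAG, both forms of the ETS site, and the composite of an E-box and a GATA site (CANNTG, 9 bases, GATA), each on both strands. The windows are shown because the induced factors are an ETS factor, a basic helix-loop-helix factor and a GATA factor. Capitals mark the matches, which appear as TTCCTGT where the ETS form lies on the other strand.
Igf2, chr7:142666817-142667066, minus strand: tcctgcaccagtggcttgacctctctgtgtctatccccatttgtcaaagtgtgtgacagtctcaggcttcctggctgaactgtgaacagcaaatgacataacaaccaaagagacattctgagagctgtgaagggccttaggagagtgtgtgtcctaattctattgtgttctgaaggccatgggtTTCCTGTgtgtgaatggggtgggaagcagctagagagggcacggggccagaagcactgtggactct
Kcne3, chr7:100176420-100176669, plus strand: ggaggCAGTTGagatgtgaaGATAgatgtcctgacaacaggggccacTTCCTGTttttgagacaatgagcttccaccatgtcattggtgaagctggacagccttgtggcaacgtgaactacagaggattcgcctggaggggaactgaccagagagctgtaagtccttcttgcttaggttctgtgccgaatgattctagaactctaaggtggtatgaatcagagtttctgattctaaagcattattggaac
Shares are of genes with a match in any of their windows. ACAGGAA occurred in 10.1% of 335 higher genes and in 7.58% of all 15614 tested genes with a window. CCGGAAG occurred in 5.97% and 10.7%, and the composite in 0.597% and 0.512%. The matches describe the letters of these windows only.

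**Figure D2:**
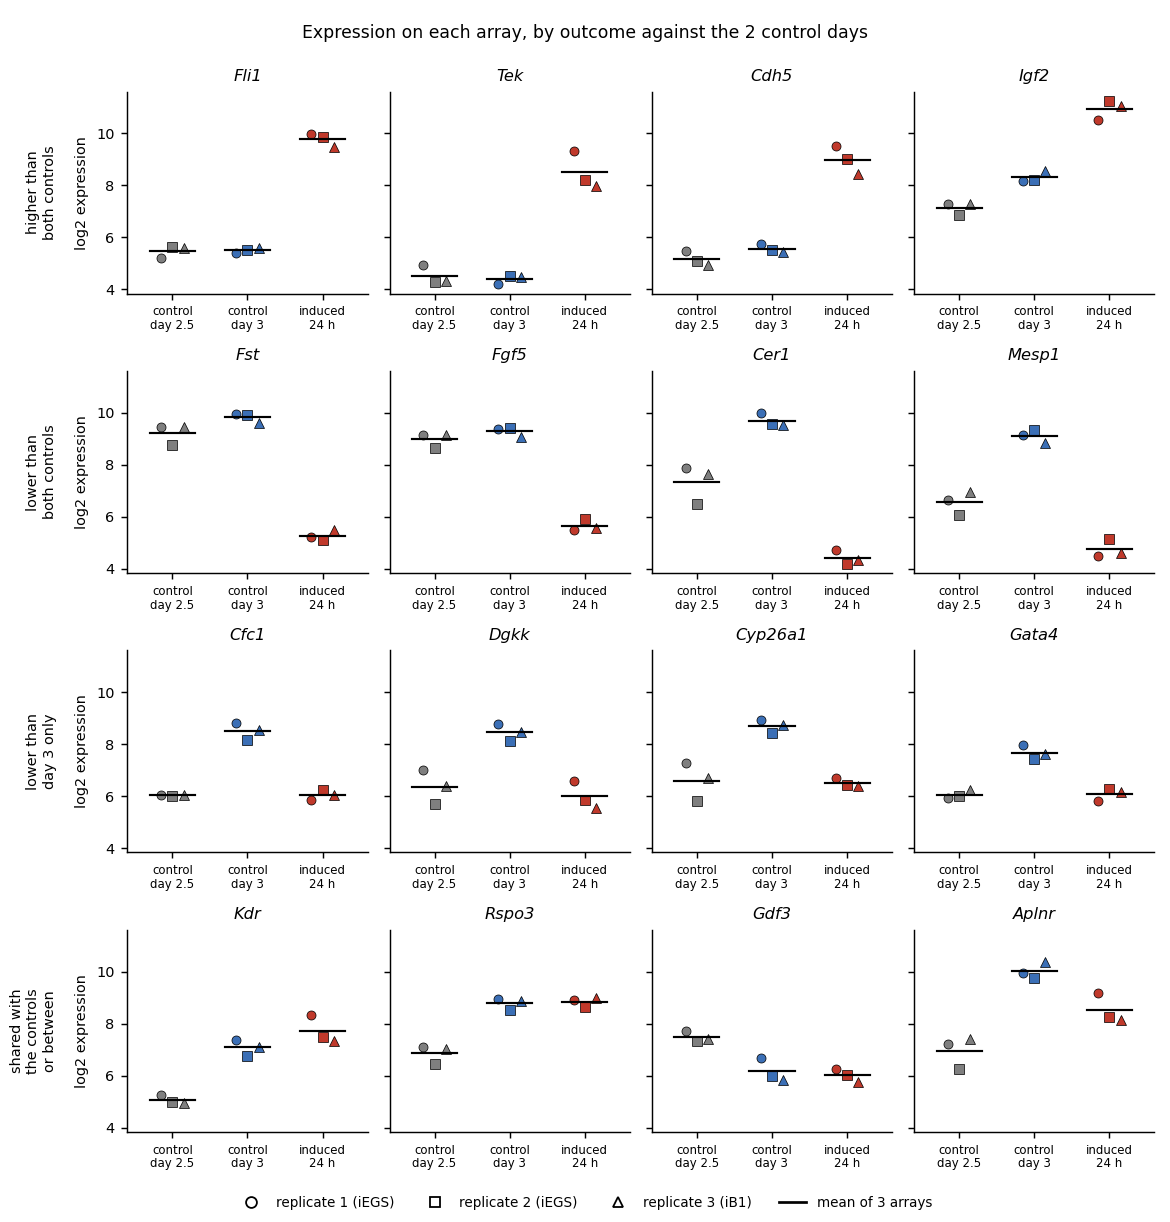
Log2 expression of 16 genes on each array of control day 2.5 (grey), control day 3 (blue) and induced 24 h (red). Marker shapes give the replicate, with replicates 1 and 2 from iEGS and replicate 3 from iB1, and bars give the mean of 3 arrays. Induced arrays lie above both controls in the top row and below both in the next. They lie near day 2.5 and below day 3 in the row after it. In the bottom row they lie near day 3 or between the control days.

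Primitive streak genes were lower than in day 2.5 controls. Of 17 measured, 10 were called lower than day 2.5 and 0 higher, and all 10 were also lower than day 3. The list's median difference from day 2.5 was -1.34 after 24 h of induction. That of the controls from day 2.5 to day 3 was 0.72. Foxa2, a forkhead factor of anterior streak and endoderm, was at 8.47, 7.86 and 8.33 in day 2.5 controls and at 5.32, 4.70 and 5.33 in induced cells, a fall of 3.10 on the log2 scale (SE 0.23, adjusted p 1.1e-06). Mixl1, a homeobox gene of the streak, was at 9.66, 8.54 and 9.50 against 6.65, 6.54 and 6.56. Eomes, a T-box factor of mesendoderm, was at 9.91, 9.27 and 9.80 against 6.99, 7.32 and 7.11. No induced array of these genes reached a control array, and the differences were -2.65 (SE 0.25) and -2.52 (SE 0.20). Sp5 (-1.75), Fgf8 (-1.45), Gsc (-1.34), Lhx1 (-1.35) and Snai1 (-1.26) were lower as well. The fall of Lhx1 from day 2.5 was not called without induced 24 h replicate 3, control day 2.5 replicate 1 or control day 2.5 replicate 3 (adjusted p 0.059 to 0.064).

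Nodal signalling genes fell with them. Of 19 members of the Nodal and activin list, 7 were lower than day 2.5 and 1 higher, and 6 of the 7 were lower than both control days, while the list's median of -0.30 was small. Fst, the activin antagonist follistatin, had the largest fall in this comparison: it was at 9.45, 8.75 and 9.44 in day 2.5 controls and 5.24, 5.12 and 5.48 in induced cells, a fall of 3.94 (SE 0.19, adjusted p 2.8e-08). Lefty1, a Nodal antagonist and target, was at 8.49, 8.03 and 8.07 against 5.06, 5.4 and 4.86, a fall of 3.09 (SE 0.23). Nodal itself was at 8.19, 7.64 and 8.04 against 6.01, 6.27 and 5.74 (-1.95), and its co-receptor Tdgf1 at 12.20, 12.35 and 12.27 against 10.19, 10.37 and 9.97 (-2.10). All of these were also below day 3. The intracellular members Smad2, Smad3 and Foxh1 were not called, at -0.09, 0.05 and -0.08. The 1 higher member, the receptor Acvr1b (0.60), was not called without induced 24 h replicate 1 or 2, any 1 day 2.5 array or control day 3 replicate 1 or 2 (adjusted p 0.051 to 0.10).

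FGF pathway genes were mostly lower, with ligands in both directions. Of 19 measured, 11 were lower than day 2.5, 10 of them lower than both control days, and 2 were higher. Fgf5, the ligand that marks the post-implantation epiblast, was at 9.15, 8.65 and 9.14 in day 2.5 controls and 5.49, 5.92 and 5.56 in induced cells, a fall of 3.33 (SE 0.18). The ETS factors Etv5 (10.31, 10.32 and 10.25 against 7.42, 7.68 and 6.54) and Etv4 fell by 3.08 and 1.87, and Etv1, an ETS factor outside the list and among the 12 largest falls, by 2.85. The inhibitors of the pathway Dusp6 (-2.22), Il17rd (-1.93), Spry4 (-1.93) and Spry2 (-1.75) fell as well, whereas the receptors Fgfr1, Fgfr2, Fgfr3 and Fgfr4 were not called (-0.21 to 0.35). The higher ligands Fgf3 (1.5) and Fgf10 (0.98) had also risen in the controls by day 3 (1.02 and 1.29). The rise of Fgf10 was not called without induced 24 h replicate 2, control day 2.5 replicate 2 or control day 2.5 replicate 3, where adjusted p was 0.066 to 0.070.

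Of 15 epiblast genes, 13 were lower than day 2.5, 0 were higher and 11 were lower than both control days, with a median of -1.26. The zinc finger genes Zic2 and Zic5, which mark epiblast and neural plate, fell by 2.52 and 2.19, the homeobox gene Otx2 by 1.94 and the arginine transporter Slc7a3 by 2.98. Of 21 pluripotency genes, 5 were lower and 1 higher. Nanog was at 10.32, 10.24 and 10.59 in day 2.5 controls and 8.16, 8.34 and 7.68 in induced cells, a fall of 2.32 (SE 0.17), and Eras, a Ras gene of ES cells, fell by 2.89. Pou5f1 (Oct4) fell less, by 1.01, from 11.29, 11.07 and 11.05 to 10.01, 10.28 and 10.08, and it was at 10.52 or above on every control array. Sox2 fell by 1.49. Nr0b1, a nuclear receptor gene of ES cells, was not called and varied among control arrays. It was at 7.48, 5.45 and 5.27 on day 2.5 and at 5.32, 4.12 and 4.14 after induction (-1.54, interval -2.75 to -0.33, adjusted p 0.14). Without induced 24 h replicate 1 Nr0b1 was called (adjusted p 0.047). The higher member, Tbx3, a T-box gene also active in mesoderm, rose by 2.14, above the 1.32 by which the controls rose. The kinase gene Pim2 (-3.61), the hormone precursor Trh (-3.35) and Ppp4r4 (-3.24), a regulatory subunit of protein phosphatase 4, were among the 12 largest falls and were below both control days.

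A gene may also be followed through the controls. Between day 2.5 and day 3, 112 genes rose in untreated cells (0.562% of those tested). In induced cells 20 of the 112 were below both control days, 54 were below day 3 and not called against day 2.5, and 2 lay between the control days. Another 23 were called higher than day 2.5 and not called against day 3, 9 were above both control days and 4 had no call. By these calls 76 of the 112 (67.9%) were lower than in day 3 controls, beside 3.43% of all genes. The rise and the lower call use the same day 3 arrays, which favours their overlap, so this share is a description only. Of the 39 genes that fell in the controls (0.196%), 21 were called lower than day 2.5 and not called against day 3, and 11 were below both days. Another 3 were above day 3 and not called against day 2.5, 2 were above both and 2 had no call. The 23 and the 21 are not shown to equal day 3. Greb1l differed from day 3 by 0.54 (95% interval 0.18 to 0.90) and Bmerb1 by -0.62 (-0.99 to -0.24). Rspo3 differed by 0.06 (-0.40 to 0.52) and Gdf3 by -0.15 (-0.62 to 0.32). The number of rising genes was 65 without control day 2.5 replicate 2, 71 without control day 3 replicate 1 and 63 without control day 3 replicate 3, and the 54 became 32, 29 and 27. Leaving out single arrays gave 3 to 11 in place of 9, 11 to 33 in place of 23, 2 to 21 in place of 11 and 2 to 45 in place of 21, with the lowest counts without control day 2.5 replicate 2 or control day 3 replicate 3. With the replicate number as a block, 197 genes rose and 147 fell in the controls, and the 54 became 82. The falling genes ranged from 4 without control day 3 replicate 3 to 84 without induced 24 h replicate 1, and were also over 1.5 times fewer or more without each other array of these groups save control day 3 replicate 1.

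**Figure D3:**
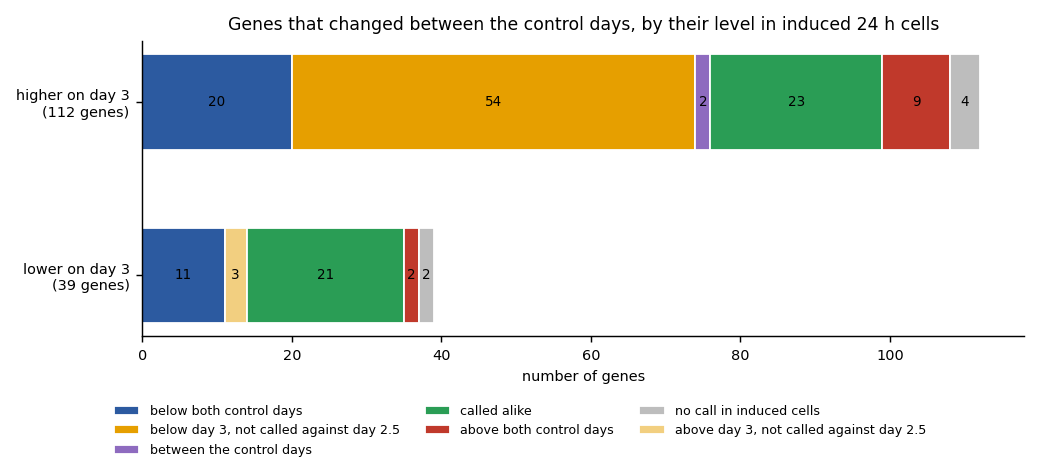
Bars count the 112 genes that rose and the 39 that fell between control day 2.5 and control day 3, split by their call in induced 24 h cells. Of the rising genes, 20 were below both control days and 54 were below day 3 without a call against day 2.5.

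The 20 genes that rose in the controls and were lower in induced 24 h cells than in day 2.5 controls were Adam19, Asb4, Cdh11, Cdh2, Cer1, Frzb, Itga8, Jag1, Lhx1, Mesp1, Mesp2, Mixl1, Nme5, Pcdh18, Pdgfra, Slit2, Snai1, Sp5, Tmem185a and Upp1. Cer1, a secreted antagonist of Nodal, BMP and Wnt signals, was at 7.87, 6.5 and 7.63 on day 2.5, at 9.99, 9.55 and 9.52 in day 3 controls and at 4.72, 4.19 and 4.32 in induced cells. It was 2.92 lower than day 2.5 (SE 0.32) and 5.28 lower than day 3. Mesp1, the basic helix-loop-helix factor of the first cardiac mesoderm, was at 6.65, 6.08 and 6.94, then 9.15, 9.32 and 8.84 in controls, against 4.49, 5.14 and 4.61 in induced cells, 1.81 below day 2.5 and 4.36 below day 3. The 3 groups did not overlap in either gene. Both genes kept all 3 calls when any single array was left out. Cdh2, the cadherin of mesenchymal and neural cells, was 1.69 below day 2.5 after a control rise of 1.72, and the adhesion gene Cdh11 was 1.61 below it after a rise of 1.59. Frzb, a secreted Wnt antagonist, was 1.58 below day 2.5 (control rise 2.31), and Asb4, a subunit of ubiquitin ligases, 1.06 below it (control rise 2.69). Some members rested on single arrays: Mesp2 (-0.66) and Pdgfra (-0.81) were called at an adjusted p of 0.035 each against day 2.5. Mesp2 had an adjusted p between 0.05 and 0.15 without any 1 of the 9 arrays of these groups. Pdgfra had one of 0.065 to 0.16 without induced 24 h replicate 2 or 3 or control day 2.5 replicate 1 or 3. The control rises of Mixl1, Upp1 and Jag1 were each lost without any 1 of 6 of the 9 arrays (adjusted p 0.051 to 0.21). Adam19 and Tmem185a were not called against day 2.5 without induced 24 h replicate 2 or 3 or control day 2.5 replicate 1, nor Tmem185a without control day 2.5 replicate 3. The control rises of Nme5, Pcdh18 and Tmem185a were lost without control day 2.5 replicate 2 or control day 3 replicate 1 or 3, and for some of them without others. The count of 20 was 13 without induced 24 h replicate 2, without control day 2.5 replicate 2 or 3, or without control day 3 replicate 1 or 3.

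The 54 genes that rose in the controls, were below day 3 and were not called against day 2.5 were chosen by those calls, so their differences are given as a description only. They ran from -0.88 (Alox15) to 0.88 (Dkk1) against day 2.5, with a median of -0.02, and their medians were -1.25 against day 3 and 1.22 for the control rise. The induced mean lay below the day 2.5 mean for 29 and above it for 25. The 95% interval of the difference from day 2.5 lay within 2-fold for 47 of the 54. Cfc1, a co-receptor of Nodal, was at 6.05, 6.03 and 6.06 on day 2.5, 8.80, 8.18 and 8.54 in day 3 controls and 5.86, 6.25 and 6.04 in induced cells, a difference of 0.01 from day 2.5 (interval -0.36 to 0.37). Cyp26a1, which degrades retinoic acid, was at 7.27, 5.80 and 6.71, then 8.94, 8.45 and 8.72, against 6.69, 6.42 and 6.4 (-0.09, interval -0.71 to 0.53). Gata4, a zinc finger factor of heart and endoderm outside the rule for named genes, was at 5.94, 6.01 and 6.24, then 7.96, 7.43 and 7.64, against 5.81, 6.26 and 6.16 (0.02, interval -0.35 to 0.38). In these 3 genes induced and day 2.5 arrays overlapped and every day 3 array lay above both. The diacylglycerol kinase gene Dgkk (-0.38), the semaphorin Sema6d (-0.28) and Samd3 (-0.07) behaved alike. The atrial myosin light chain Myl7 (-0.50, interval -0.86 to -0.14) and the lipoxygenase Alox15 (-0.88, interval -1.49 to -0.27) had intervals wholly below 0 without passing the adjusted threshold (0.11 and 0.093). Alox15 was called lower than day 2.5 without induced 24 h replicate 3 or control day 2.5 replicate 2 (-1.11 and -1.17), and its control rise was not called without control day 2.5 replicate 2 or 3 or any 1 day 3 array (adjusted p 0.054 to 0.11).

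Several signalling and mesoderm lists were split between these outcomes. Of 22 BMP pathway genes, 6 were higher than day 2.5 and 0 lower, and 5 others were below day 3 without a call against day 2.5 after a called control rise. Bmp4, the ligand that induces ventral mesoderm, was at 6.57, 6.13 and 6.48 on day 2.5, 7.62, 7.32 and 7.54 in day 3 controls and 8.78, 9.04 and 9.14 in induced cells, above both (2.59, SE 0.15). Smad6 (1.28), an inhibitor of the pathway, was above both control days. Its call against day 3 was lost without induced 24 h replicate 2 or control day 3 replicate 3 (adjusted p 0.061 and 0.060). The targets Id3 (1.19) and Id1 (0.92) were higher than day 2.5 without a call against day 3. In contrast Bmp7, the homeobox targets Msx1 and Msx2, the secreted regulator Bmper and Bmp2 differed from day 2.5 by 0.16, 0.37, 0.41, -0.01 and 0.82, and the controls had risen by 1.22, 1.06, 1.43, 1.15 and 1.94. Msx2, for example, was at 5.19, 5.42 and 5.71, then 6.76, 6.80 and 7.04, against 5.51, 5.83 and 6.19. The place of Bmp2, Msx1 and Bmper in this class rested on single arrays: Bmp2 was not called against day 3 without induced 24 h replicate 2 or 3 or control day 3 replicate 1 or 3 (adjusted p 0.10 to 0.14). Msx1 was not called there without any 1 of 8 arrays, and the control rise of Bmper was not called without control day 2.5 replicate 2 or 3 or control day 3 replicate 1 or 3 (0.052 to 0.066).

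Wnt genes divided likewise. Of 28 measured, 8 were lower and 3 higher than day 2.5, and 2 were below day 3 alone after a control rise. Wnt8a, a ligand of the streak, was at 7.64, 7.0 and 7.20 on day 2.5 and 4.70, 4.43 and 5.0 after induction, a fall of 2.57 (SE 0.20), the transcription factor Lef1 fell by 1.36 and the antagonist Sfrp1 by 1.42. Lgr5, the R-spondin receptor, rose by 2.88 and was 1.70 above day 3. Rspo3, an enhancer of Wnt signals, rose as in the controls: it was at 7.09, 6.45 and 7.01, then 8.95, 8.52 and 8.85, against 8.89, 8.64 and 8.97 in induced cells. Dkk1, an antagonist, and the ligand Wnt5a were the 2 members below day 3 alone after a control rise (0.88 and -0.46 against day 2.5). Without induced 24 h replicate 1 Dkk1 was called higher than day 2.5 (1.16), and 5 members of the list were called higher. Dkk1 was not called against day 3 without control day 3 replicate 1 (adjusted p 0.061). In the Notch list of 17, 2 were higher (Hey1 and Hey2, targets that act in vessels, 1.68 and 0.97) and 2 lower (the ligands Jag1 and Dll3, -1.11 and -0.75). Over all genes 2.3% were called higher and 4.03% lower. The call of Dll3 was lost without control day 2.5 replicate 1 (-0.69), and 4 members were higher without induced 24 h replicate 3.

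Calls in other mesoderm lists were mixed, beside 2.3% of all genes called higher and 4.03% called lower than day 2.5. Of 21 cardiac mesoderm genes, 4 were lower than day 2.5, 2 higher and 3 below day 3 alone after a control rise, and the controls had raised 9 of the 21. Actc1, cardiac actin, fell by 1.89 from 8.0, 7.63 and 7.82 to 5.70, 6.13 and 5.94. The T-box factor Tbx20 (1.40) and Gata6 (1.15) rose from day 2.5, as the controls did (1.18 and 1.63). Only 2 cardiac genes were lower without induced 24 h replicate 2 or 3 or control day 2.5 replicate 1 or 3. Hand1, a basic helix-loop-helix factor of heart and extraembryonic mesoderm, varied among induced arrays (5.84, 6.86 and 7.48) and was not called against either day (1.06 and -1.01). It was called higher than day 2.5 without induced 24 h replicate 1 (1.5) and lower than day 3 without induced 24 h replicate 3 (-1.38). Of 20 paraxial mesoderm genes, 3 were higher (1 of them above both control days), 2 lower and 4 below day 3 alone after a control rise. These 4 were Cyp26a1, the Notch ligand Dll1 and the presomitic factors Tbx6 and Msgn1 (-0.09, 0.32, 0.10 and -0.03 against day 2.5). Dll1 was not called against day 3 without induced 24 h replicate 2 or 3 or control day 3 replicate 1 or 2 (adjusted p 0.051 to 0.077). The 2 lower ones were Mesp2 and Dll3. The count of lower members was 0 without control day 2.5 replicate 1 and 1 without any other single array but induced 24 h replicate 2, where Mesp2 was replaced by another member. Of 19 lateral plate and extraembryonic mesoderm genes 4 were higher, only 1 of them above both control days, and 0 lower. Of 26 Hox and Cdx genes 0 were called in either direction by limma, with differences between -0.42 and 0.53, while 4 had an unadjusted p under 0.05 (3 higher and 1 lower).

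A few genes moved with the controls or against them. Kdr, the VEGF receptor that marks hemangioblasts, was at 5.26, 4.97 and 4.96 on day 2.5, 7.37, 6.77 and 7.11 in day 3 controls and 8.33, 7.47 and 7.32 in induced cells. It rose by 2.64 (SE 0.26) and did not pass the test against day 3 (0.62, adjusted p 0.25). Its co-receptor Nrp1 rose by 2.05, where the controls rose by 1.55 (adjusted p 0.052 without control day 2.5 replicate 3). Aplnr, the apelin receptor of early mesoderm, and the chromatin factor Prdm6 lay between the control days: Aplnr was at 7.23, 6.25 and 7.41, then 9.93, 9.74 and 10.35, against 9.19, 8.26 and 8.13 in induced cells. Aplnr was 1.56 above day 2.5 and 1.48 below day 3 with no overlap between groups, and the second difference missed the threshold without control day 3 replicate 3 (adjusted p 0.052). The same holds for Prdm6 without control day 3 replicate 1 or 3 (0.071 and 0.058). Gdf3, a Nodal-related ligand, and the ubiquitin hydrolase Uchl1 fell in both, by 1.48 and 1.78 in induced cells and by 1.33 and 1.40 in controls. The control fall of Gdf3 was not called without control day 3 replicate 2 or 3 (adjusted p 0.054 and 0.065), nor that of Uchl1 without control day 3 replicate 3 (0.063). Myb, Wt1 and Mid1ip1 fell in the controls only (-1.02, -0.63 and -0.61) and differed from day 2.5 by 0.20, 0.00 and -0.05 in induced cells. Myb, a factor of blood progenitors, was at 7.54, 7.80 and 7.73, then 6.98, 6.56 and 6.47, against 8.11, 7.94 and 7.61. The control falls of these 3 genes were lost without control day 2.5 replicate 2 and without control day 3 replicate 2 or 3, with adjusted p from 0.053 to 0.19, and those of Wt1 and Mid1ip1 also without others.

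MicroRNA genes of ES cells followed the same division. The probe sets read precursor or primary transcripts, so mature levels were not measured. Mature sequences are shown because Mir363, which fell below both control days, shares its seed (bases 2 to 8, in capitals) with Mir367, which was below day 3 alone, and Mir302b shares its seed with Mir302d. Sequences are from RefSeq, GRCm38.p6.
miR-363-3p, chrX:52741697-52741718, minus strand: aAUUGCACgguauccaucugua
miR-367-3p, chr3:127545779-127545800, plus strand: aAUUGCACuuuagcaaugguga
miR-92a-3p, chrX:52741854-52741874, minus strand: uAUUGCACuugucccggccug
miR-302b-3p, chr3:127545275-127545297, plus strand: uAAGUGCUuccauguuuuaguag
miR-302d-3p, chr3:127545665-127545687, plus strand: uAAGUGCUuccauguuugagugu
miR-302c-3p, chr3:127545406-127545427, plus strand: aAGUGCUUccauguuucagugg
The seed of miR-302c-3p begins 1 base further along the stretch that miR-302b-3p and miR-302d-3p share.

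Mir363, on the X chromosome, was at 6.87, 6.70 and 7.24 in day 2.5 controls, 6.26, 7.18 and 7.72 in day 3 controls and 4.55, 4.01 and 3.82 in induced cells, a fall of 2.81 (SE 0.30, adjusted p 2.9e-05) with no overlap. Its neighbours Mir92-2 and Mir106a were not called (-0.24 and -0.15), and Mir19b-2, at low signals of 3.20, 3.81 and 3.19 against 2.64, 2.75 and 2.92, passed the threshold (-0.63, adjusted p 0.037) but not without induced 24 h replicate 1 or 2, control day 2.5 replicate 2 or control day 3 replicate 2 (0.055 to 0.12). On chromosome 3, Mir302c was at 5.55, 4.94 and 5.64, then 6.45, 7.59 and 6.91, against 4.89, 4.51 and 4.75 in induced cells. It was 2.27 below day 3 and not called against day 2.5 (-0.66, interval -1.30 to -0.02, adjusted p 0.25). Mir302a, Mir302b, Mir302d and Mir367 were 2.36, 1.60, 1.94 and 2.80 below day 3 by size, all called, and differed from day 2.5 by -0.42, -0.24, -0.55 and -1.06, none called. The interval for Mir367 ran from -2.17 to 0.04, so that a fall of that size below day 2.5 was not excluded. The control rise was called for Mir302b and Mir302c (1.37 and 1.61) and not for the other 3, although all 3 had every day 3 array above every day 2.5 array. It was not called for Mir302b without control day 2.5 replicate 2 (adjusted p 0.069), nor for Mir302c without that array or control day 3 replicate 2 or 3 (0.088 to 0.12). Without control day 3 replicate 1 it was called for Mir302a and Mir302d (0.026 and 0.043).

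**Figure D4:**
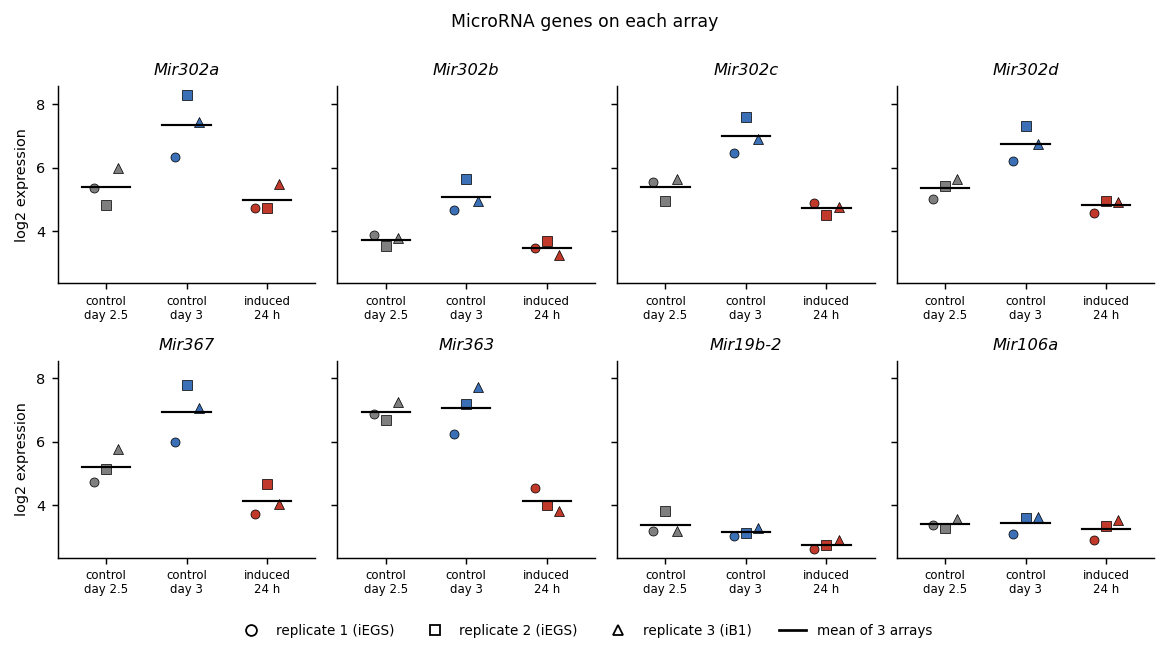
Log2 expression of 8 microRNA genes on each array of control day 2.5 (grey), control day 3 (blue) and induced 24 h (red), with bars at the mean of 3 arrays. Mir363 is the gene whose 3 induced arrays (3.82 to 4.55) lie well below both control days, while the Mir302 genes and Mir367 lie below day 3 and were not called against day 2.5, although the induced arrays of Mir302c, Mir302d and Mir367 also lie below those of day 2.5.

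Cadherins and other adhesion genes changed in both directions. Of 18 genes of epithelial-mesenchymal transition, 6 rose, only 2 of them above both control days, and 6 fell, all below both. Cdh5 rose while Cdh1 (-1.14), Cdh2 (-1.69) and Cdh11 (-1.61) fell, the repressor Zeb2 rose by 1.72 and the repressor Snai1 fell by 1.26. Of 25 axon guidance and ephrin genes 9 fell, all below both control days, and 5 rose, only 2 of them above both. The receptors Epha1 (9.03, 8.48 and 8.82 against 6.24, 6.21 and 6.26) and Epha2 fell by 2.54 and 2.08 and the semaphorin Sema6a by 2.40, whereas the semaphorin receptor of vessels Plxnd1 rose by 2.08 and the arterial ligand Efnb2 by 1.24. Of 16 basement membrane genes 5 rose, all above both control days, among them the collagen IV chains Col4a5 (0.97) and Col4a6 (0.94) and the linker Nid1 (1.29), and 2 fell, among them Nid2 (-1.18). Nid1 was not called against day 3 without induced 24 h replicate 1 or 2, control day 2.5 replicate 3 or control day 3 replicate 2 or 3 (adjusted p 0.053 to 0.17).

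Lists of markers of other cells that cultures could hold were also examined, with the trophoblast list given under other observations. Their counts stand beside 2.3% of all genes called higher and 4.03% called lower, and small counts are not read as a response of a list. Of 20 endoderm genes 4 were higher than day 2.5, 2 of them above both control days, and 3 were lower, all below both. Foxa2 and Cer1, named above, are among the lower ones, and the controls had raised 7 of the 20. Of 15 neural fate genes 0 were higher and 2 lower, both below both control days. Of 21 fibroblast and feeder genes 0 were called in either direction against day 2.5 (limma, 2 higher and 0 lower at an unadjusted p under 0.05), and the list's mean level was 5.23 to 5.56 on the control arrays and 5.31 to 5.66 on the induced arrays. Of 13 macrophage and lymphoid genes 1 was called, the Fc receptor gene Fcgr3 (0.68, adjusted p 0.042). That call was lost without any array but induced 24 h replicate 1 and control day 2.5 replicate 2. Without adjustment 5 were higher and 0 lower at a limma p under 0.05, beside 19.2% of all genes in either direction. The list's median difference was 0.30, and its mean level was 3.93 to 4.29 on day 2.5 arrays against 4.12 to 4.55 on induced arrays. Of 13 smooth muscle genes 2 fell, Cnn1 (-2.05) and Myl9 (-1.46), and 5 were lower at an unadjusted p under 0.05. The list means did not overlap, at 6.77 to 6.91 on day 2.5 arrays and 6.4 to 6.54 on induced arrays. Of 26 cell cycle genes 3 fell, among them Cdk6 (-1.25) and Ccne1 (-1.0), and 1, the cyclin gene Ccnd3, rose (0.61, adjusted p 0.034). Ccnd3 was not called without induced 24 h replicate 2 or 3, any 1 day 2.5 array or control day 3 replicate 2 (0.052 to 0.14). RMA values have no 0, so the lowest signals mark absence only loosely. The part of these markers in the results above was not tested.

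**Figure D5:**
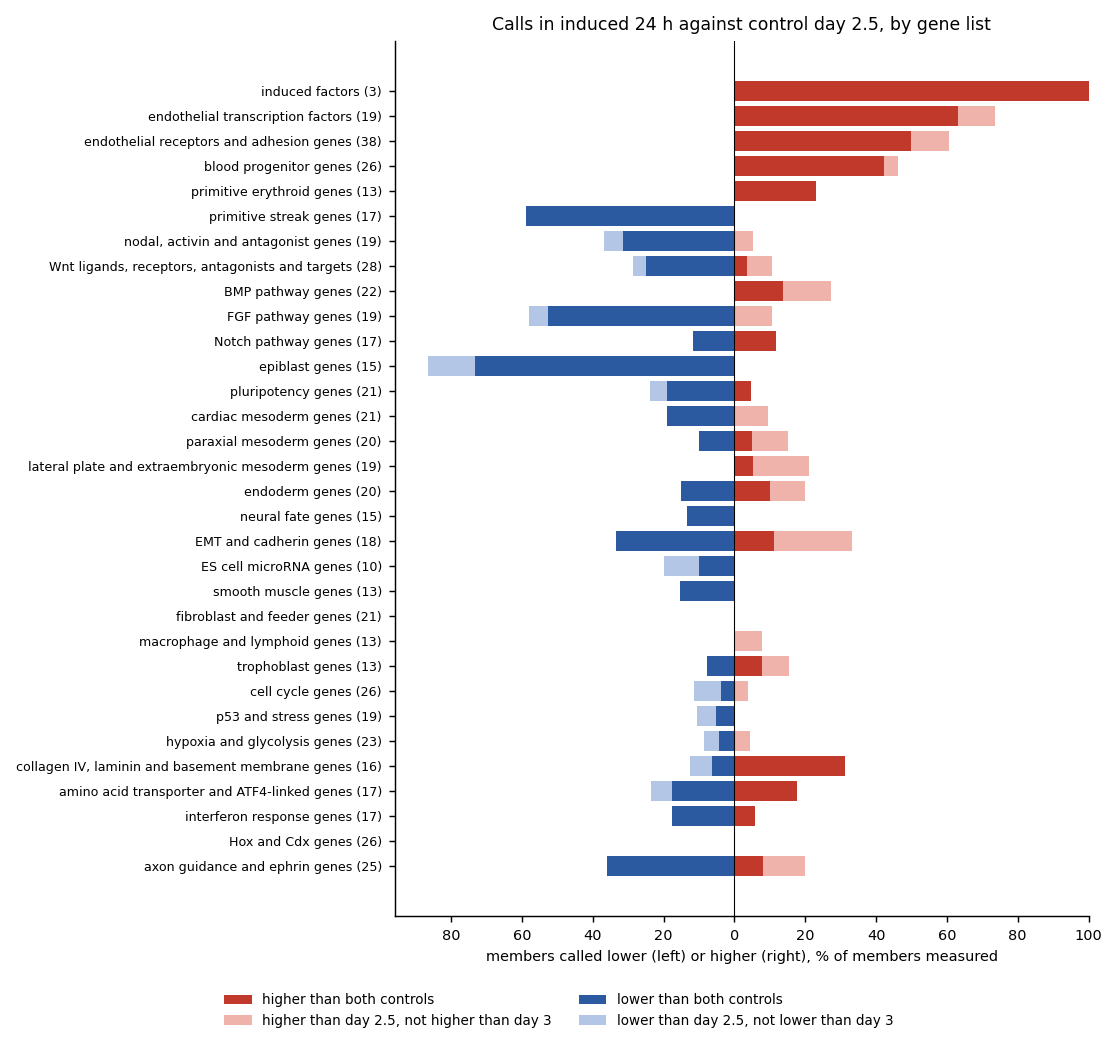
For each gene list, with the number of members measured in brackets, bars give the share of members called higher (right) or lower (left) in induced 24 h cells than in control day 2.5. Dark shades mark members also called that way against control day 3. Endothelial and blood lists lie to the right and streak, FGF and epiblast lists to the left, where 2.3% and 4.03% of all genes were called higher and lower.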

How the data were processed

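Per the submitters' processing notes the authors made the deposited log2 values with RMA in Affymetrix Expression Console. Its version, and the set of arrays it ran on, were not stated there. RMA normalizes arrays to each other, which can hide changes that most genes share, and it compresses low signals. The deposited arrays still differed in spread over genes (SD 1.91 to 2.22). Of 35556 probe sets, 21789 had 1 gene symbol, 1621 several and 12146 were not listed. The probe set with the highest mean stood for each of 999 genes with several, which left 19938 genes.

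The 12 arrays of the 4 groups with 3 replicates were fitted as group means by lmFit and eBayes (limma 3.58.1, R 4.3.3), with 8 residual and 6.05 prior degrees of freedom and no filter on dim genes. Induced 12 h arrays entered for the spread only. Intervals are 95% intervals without adjustment. The day 2.25 arrays, 1 per group, were not used. Calls against day 2.5, against day 3 and between the controls were combined.

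The members and the 32 gene lists were chosen with earlier results of these data known. The named genes were picked by rule, and not all of them are described in the text. They were the 3 factors, the 12 largest rises and falls, and the 8 largest members of the classes defined by the controls. Classes of genes between the control days or shared with them gave 4 at most, and each list gave up to 4 called members. Other genes named were chosen after their values were seen, from the lists and classes. Deviations of same-numbered day 3 and induced 24 h arrays correlated at 0.517, 0.157 and 0.261. Induced replicate 3 correlated better with day 3 replicate 2 (0.375), so the numbers do not fully pair these groups. Fits with the replicate number as a block are given where they move a count by over 1.5 times. Levels are not compared between genes. The script was tested on simulated data. Alternatives covered the fit, scaling, dim genes, probe sets, array weights and leaving out arrays.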

Additional observations from a re-analysis of the deposited data

How the results depend on the processing

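Main counts were 458 genes higher and 804 lower than day 2.5, 409 lower and 310 higher than both controls, 54 below day 3 alone after a control rise and 3 above day 3 alone after a control fall. Over all fits that left out 1 array, or 1 replicate number in every group, these ranged from 191 to 932, 260 to 1672, 130 to 823, 129 to 483, 9 to 70 and 0 to 8. With the replicate number as a block they were 824, 1363, 627, 455, 82 and 22. Day 2.5 and induced 24 h arrays were not all paired by number (deviations of same-numbered arrays correlated at 0.605, 0.048 and 0.087), and against day 2.5 induced replicates 2 and 3 correlated best with another number (0.146 and 0.519). With only the compared groups fitted, 288 were higher, 391 lower, 250 lower than both and 1 was above day 3 alone. With array weights the counts were 1886, 2205, 1026, 883, 94 and 34. The last was 5 with quantile normalization repeated and 5 without dim genes. Leaving out dim genes, which tests fewer genes, moved the median of all genes to -0.12. For the other moved counts the cause was not tested. Of 108 called named genes, 0 changed direction under these settings. The calls of 12 were lost with only the compared groups, and those of 27 and 18 without replicate 2 and replicate 3 in every group, among them Sox2, Gata6, Id1 and Jag1 in both and Aplnr, Prdm6, Foxc2, Gata1, Id3, Nid1, Nid2 and Cdk6 in the first. No depth is known for array signals.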

Other observations

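Amino acid transporters, which the report names only singly, changed in both directions. Of 17 genes of amino acid transport and the ATF4 response, 3 rose and 4 fell against day 2.5, beside 2.3% and 4.03% of all genes. Slc7a8, a transporter of neutral amino acids, was at 5.44, 4.70 and 4.76 in day 2.5 controls and 8.65, 8.28 and 7.77 in induced cells. Slc6a9, a glycine transporter, was at 5.54, 5.80 and 6.01 against 8.26, 7.83 and 7.40, a rise of 2.05. Slc7a3, a transporter of arginine and lysine, was at 9.14, 9.10 and 9.08 against 6.37, 6.29 and 5.71, and Slc7a7 fell by 1.60. Slc7a3 had fallen by 1.37 in the controls by day 3, and its induced arrays lay below those of both days.

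Of 17 interferon response genes 3 fell, each below both control days. Irf1, a transcription factor, was at 8.48, 8.12 and 8.18 against 6.53, 6.17 and 5.97 (-2.04), and the immunoproteasome genes Psmb8 and Psmb9 differed by -1.75 and -1.0. Ifitm3 rose by 0.84, and 2 members were called higher without induced 24 h replicate 1. Of 23 hypoxia and glycolysis genes, 2 fell, Ndrg1 (-1.39) and Pdk1 (-0.70), and 1 rose, the vascular growth factor gene Vegfa (0.80). Over all genes 2.3% were called higher and 4.03% lower, so counts this small are not read as a response of a list. Pdk1 was not called without induced 24 h replicate 3 or control day 2.5 replicate 2 or 3 (adjusted p 0.058 to 0.064), and 2 members were higher without control day 2.5 replicate 3. Of 13 trophoblast genes 2 rose and 1 fell. Eomes, also a streak gene, fell by 2.52, the homeobox gene Esx1 rose by 1.65, above both control days, and Gata3 rose by 0.86. Gata3 was not called without control day 2.5 replicate 1 or 3 (adjusted p 0.057 and 0.082), and 2 members were lower without induced 24 h replicate 2.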
